A study of Mus musculus with 24 samples.

Results

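Circadian clock genes were examined in the lung RNA of adult and aged mice, over 4 groups defined by age, allergen and steroid. The genes were 10 rows of the expression table, chosen by symbol out of 23891: Arntl, Clock and Npas2 of the positive limb, Per2, Per3, Cry1, Cry2, Nr1d1 and Nr1d2 of the negative limb, and the output gene Dbp. The samples were left lung lobes of C57BL/6 mice. Naïve adult mice (n = 5) were 20 wk old and naïve aged mice (n = 5) were 80 wk old, and both groups had received saline. Aged mice of 80 wk were challenged intranasally with house-dust mite (HDM), a common aeroallergen, at 50 µg per dose (HDM, n = 7), or were challenged in the same way and also given dexamethasone (Dex), which is a synthetic glucocorticoid, by injection every 72 h at a dose of 4 mg/kg (HDM + Dex, n = 7). The final challenge preceded collection of the lungs by 24 h. No adult mouse was challenged or treated, so the effect of HDM or Dex at the younger age was not measured. The hour of the day at which each lung was collected is not given in the sources used here.

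The molecular clock is a loop of transcription factors that runs in nearly every cell of the body, including the airway epithelium, endothelium and macrophages of the lung. ARNTL (also called BMAL1) pairs with CLOCK or its relative NPAS2 and binds E-box elements, which raises the transcription of the Per and Cry genes, of the REV-ERB receptors Nr1d1 and Nr1d2, and of Dbp. PER and CRY proteins then inhibit the ARNTL complex, while the REV-ERB receptors repress Arntl, Npas2 and Clock through RORE elements that ROR receptors activate. DBP is a transcription factor that acts on D-box elements, as its relatives TEF and HLF do, and NFIL3 represses the same elements. In most tissues Arntl and Npas2 messages peak at nearly the opposite time of day to those of Dbp, Per3 and Nr1d1, and Cry1 peaks later than the other repressors. Glucocorticoids are one of the signals that set peripheral clocks.

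Values are counts scaled per M reads (CPM), the reads of a gene scaled to a common library total by the authors. The spacing of low values put the reads assigned to genes at 10.1 to 33.1 M in a sample, and no clock gene was below 2.05 CPM or below about 28.1 reads in any sample, so none was near the 0.0906 to 0.298 CPM that 3 reads give. The RNA of the signal recognition particle, 7SL, took 9.92% to 42.0% of a sample's CPM, with a median of 10.9% in naïve aged and 28.1% in HDM samples, and CPM are shares of a total that includes it. Each comparison is therefore given on the CPM as deposited and after rescaling by median-of-ratios size factors. All 6 markers of type 2 alveolar cells were detected, and their summed level was 2700 to 12626 CPM over the samples. By Xist and Ddx3y, all 5 naïve adult mice were female, while the aged groups held both sexes. In lung tissue, fewer cells of a type and less RNA per cell cannot be told apart. The labels number the samples and do not say how many mice each came from, so p-values measure the spread between these samples.

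The elements through which the loop acts were looked for in the sequence near the start site of each gene, from 250 bases before it to 50 after it (RefSeq, GRCm38.p6), to show which of them the members carry there. Of the 10 members, 9 had such a window, and Per2 had none. The E-box CACGTG was found in 1 of the 9, Cry1, and in 7.15% of all 32851 windows. The related E'-box CACGTT, which reads AACGTG on the other strand, was found in 3 of the 9, Cry1, Cry2 and Nr1d1, and in 4.69% of all windows. The D-box, TTATGTAA or TTACGTAA, was found in 1 member, Per3, which held a pair of copies, and in 1.06% of all windows. A RORE was found in 1 member, Arntl, and in 0.384% of all windows. Both strands were searched and no match overlapped another. Capitals mark the matches in the stretches below, which are written 5′ to 3′ on the strand of the gene and come from chr10:85185089-85185153 (Cry1, minus strand), chr4:151044796-151044890 (Per3, minus strand), chr11:98775380-98775425 (Nr1d1, minus strand) and chr7:113207528-113207556 (Arntl, plus strand).
Cry1: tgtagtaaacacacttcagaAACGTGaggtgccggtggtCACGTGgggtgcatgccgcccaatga
Per3: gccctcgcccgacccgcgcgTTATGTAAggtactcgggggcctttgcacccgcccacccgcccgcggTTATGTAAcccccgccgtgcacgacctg
Nr1d1: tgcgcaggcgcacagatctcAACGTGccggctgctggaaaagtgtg
Arntl: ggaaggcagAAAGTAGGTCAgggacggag

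Counted from the start site as 0, the D-boxes of Per3 began at positions -205 and -158. In Cry1 the E'-box began at -79 and the E-box at -60, and in Nr1d1 the E'-box began at -28. The RORE of Arntl lay at positions 26 to 36, past the start site. Among 20 further genes of the clock pathway, 14 had a window, of which 4 held the E-box (Per1, Ciart, Bhlhe41 and Tef), 1 the E'-box (Rorb), 1 the D-box (Timeless) and 0 a RORE. These matches are descriptions of the letters in the windows and were not tested for binding.

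The levels of the clock genes differed between genes and, within a gene, between mice. Per kb of exon, Nr1d1 had the highest mean level of the 10 in each of the 4 groups, with 28.4 CPM per kb at the younger age and, in the aged mice, 11.8 after HDM and 9.93 after HDM + Dex, while after saline Cry2 came next to it with 12.2. Npas2 had the lowest mean in 3 of the groups, at 1.07, 2.99 and 1.11 CPM per kb in naïve adult, naïve aged and HDM samples, while in HDM + Dex samples Arntl, at 2.13, was below Npas2, at 2.35. Dbp moved most in this order, from 19.2 CPM per kb in naïve adult, second to Nr1d1, to 4.46 in naïve aged samples, where it was below 6 other members. Between the lowest and the highest of the 24 samples, CPM differed 38.0-fold for Dbp, 12.3-fold for Npas2, 10.7-fold for Nr1d1 and 8.26-fold for Arntl, but 3.84-fold for Clock and 3.87-fold for Cry1.

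**Figure D1:**
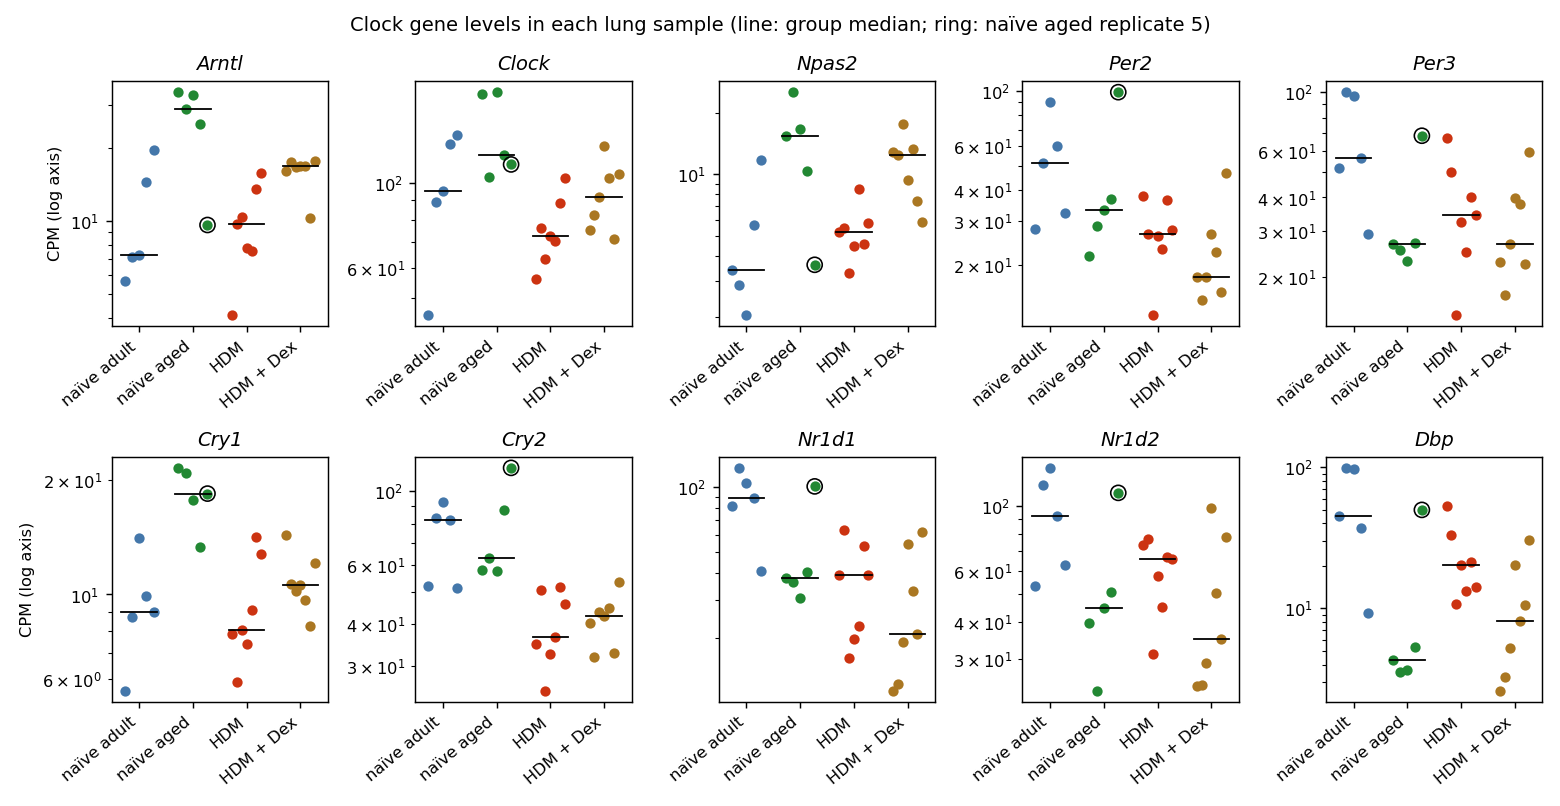
CPM of the 10 clock genes (log axis) in each of the 24 lung samples, 1 point a sample, by group, with a line at the group median and a ring around naïve aged replicate 5. In naïve aged samples Arntl lay at 25.0 to 33.9 CPM and Dbp at 3.56 to 5.34 CPM in 4 of 5 mice, and at 9.65 and 49.9 CPM in the ringed mouse.

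Arntl (chr7:113207465-113314126, GRCm38) encodes the partner that every activator complex of the loop requires. Its level was 5.65, 7.11, 7.24, 14.5 and 19.6 CPM in the naïve adult samples and 33.9, 28.8, 32.97, 25.0 and 9.65 CPM in the naïve aged samples. It ran from 4.11 to 15.8 CPM with a median of 9.71 in HDM samples, and from 10.3 to 17.6 CPM with a median of 16.9 in HDM + Dex samples. The first 4 naïve aged mice therefore lay above every other sample of the series, while naïve aged replicate 5 lay among the HDM samples. In HDM + Dex samples 6 of 7 values fell between 16.1 and 17.6 CPM.

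Clock (chr5:76209868-76304792) encodes the main partner of ARNTL. It was measured at 45.0, 89.0, 95.0, 126 and 134 CPM in naïve adult and at 171, 104, 173, 118 and 112 CPM in naïve aged samples. HDM samples had 56.1 to 103 CPM with a median of 72.8, and HDM + Dex samples 71.3 to 125 CPM with a median of 91.8. All 7 HDM samples were below all 5 naïve aged samples. Npas2 (chr1:39193731-39363236), whose product can stand in for CLOCK, was at 3.39, 2.87, 2.05, 5.62 and 11.7 CPM in naïve adult and at 15.5, 25.3, 16.8, 10.4 and 3.61 CPM in naïve aged samples. It was at 3.28 to 8.53 CPM (median 5.22) in HDM and at 5.84 to 17.6 CPM (median 12.4) in HDM + Dex samples. As with Arntl, naïve aged replicate 5 was the lowest of its group for Npas2, and naïve adult replicates 4 and 5 were the highest of theirs.

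Among the repressors, Per2 and Per3 encode PERIOD proteins that carry the cryptochromes to the ARNTL complex. Per2 (chr1:91415982-91459324) was at 27.9, 51.1, 90.1, 60.0 and 32.3 CPM in naïve adult and at 21.6, 28.6, 33.1, 36.7 and 99.0 CPM in naïve aged samples. Its range was 12.5 to 37.9 CPM (median 26.5) in HDM and 14.4 to 46.6 CPM (median 17.9) in HDM + Dex samples. Naïve aged replicate 5 had the highest Per2 of the series, and the 3 aged groups overlapped otherwise. Per3 (chr4:151003652-151044665) was at 51.8, 99.7, 96.2, 56.4 and 29.1 CPM in naïve adult samples and at 26.7, 25.4, 23.2, 27.0 and 68.3 CPM in naïve aged samples. HDM samples ranged from 14.4 to 67.3 CPM (median 34.4) and HDM + Dex samples from 17.2 to 59.3 CPM (median 26.7). All 4 groups overlapped for Per3.

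Cry1 and Cry2 encode the cryptochromes, which block the ARNTL complex directly. Cry1 (chr10:85131700-85185064) was at 5.57, 8.70, 14.1, 9.90 and 8.98 CPM in naïve adult and at 21.6, 20.9, 17.7, 13.4 and 18.5 CPM in naïve aged samples. It was at 5.89 to 14.1 CPM (median 8.06) in HDM and at 8.26 to 14.4 CPM (median 10.6) in HDM + Dex samples. Here naïve aged replicate 5 lay within its group, and the highest 4 values of the series on the deposited CPM were those of naïve aged mice. After rescaling, HDM + Dex replicate 1, at 16.7 CPM, was above naïve aged replicate 5, at 15.7 CPM. Cry2 (chr2:92403646-92434043) was at 52.1, 83.0, 92.7, 82.2 and 51.4 CPM in naïve adult and at 58.1, 63.0, 57.8, 87.7 and 117 CPM in naïve aged samples. It was at 25.3 to 51.5 CPM (median 36.7) in HDM and at 31.97 to 53.6 CPM (median 42.2) in HDM + Dex samples. Both challenged groups lay wholly below the naïve aged group for Cry2 on the deposited CPM, but not after rescaling. Cry2 shares 295 bp of exon with D930015M05Rik on the opposite strand, and the handling of strand when reads were counted is not given in the sources used here.

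Nr1d1 and Nr1d2 encode REV-ERBα and REV-ERBβ, heme-binding receptors that repress Arntl. Nr1d1 (chr11:98767932-98775333) was at 81.7, 122, 104, 88.8 and 40.9 CPM in naïve adult and at 37.8, 36.6, 30.9, 40.5 and 100.5 CPM in naïve aged samples. It was at 16.3 to 63.4 CPM (median 39.1) in HDM and at 11.5 to 62.0 CPM (median 20.97) in HDM + Dex samples. Nr1d1 shares 263 bp of exon with Thra on the opposite strand, whose mean was 96.8 CPM in naïve aged and 66.5 CPM in HDM samples, so part of the reads cannot be assigned to either gene with certainty. Nr1d2 (chr14:18204054-18239127) was at 53.3, 118, 135, 92.3 and 62.8 CPM in naïve adult and at 39.8, 23.3, 44.6, 50.7 and 111 CPM in naïve aged samples. It was at 31.2 to 77.3 CPM (median 65.7) in HDM and at 24.1 to 98.3 CPM (median 35.1) in HDM + Dex samples. For both receptors, naïve adult replicate 5 was lower and naïve aged replicate 5 higher than most of the group.

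Dbp (chr7:45705088-45710203) had the widest range of the 10. It was at 45.2, 99.1, 96.7, 37.4 and 9.30 CPM in naïve adult and at 4.29, 3.56, 3.67, 5.34 and 49.9 CPM in naïve aged samples. It was at 10.7 to 52.9 CPM (median 20.4) in HDM and at 2.60 to 30.8 CPM (median 8.16) in HDM + Dex samples. All 7 HDM samples were above the first 4 naïve aged samples and 6 of 7 were below the fifth. Dbp shares 539 bp of exon with Sphk2 on the opposite strand.

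Within groups, the spread of most clock genes was above that of the typical gene. The SD of log2(CPM + 1) within groups was 1.18 for Dbp, higher than in 99.6% of the 17744 genes tested, and 0.76 for Nr1d1, higher than in 97.4%. It was 0.56 for Arntl, 0.63 for Per2 and 0.65 for Npas2, against a median of 0.36 over all genes. Clock at 0.39, Cry2 at 0.36 and Cry1 at 0.34 were near that median. After rescaling the SD was 1.13 for Dbp, 0.52 for Arntl and 0.24 for Clock, against a median of 0.29.

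HDM was compared with saline in aged mice to ask how the clock genes differ between challenged and unchallenged aged lungs. The hour of collection is not given. Allergen or steroid therefore cannot be told apart from hour in this comparison or in those with Dex below. The 3 genes of the positive limb and both cryptochromes were lower after HDM. By limma with Benjamini-Hochberg adjustment over all genes, the log2 difference was -1.29 ± 0.28 (SE) for Arntl (adjusted p = 0.00241), -0.82 ± 0.17 for Clock (adjusted p = 0.00200) and -1.10 ± 0.32 for Npas2 (adjusted p = 0.0154). It was -0.94 ± 0.19 for Cry1 (adjusted p = 0.00150) and -0.92 ± 0.19 for Cry2 (adjusted p = 0.00219). The remaining repressors did not pass the test, with differences of -0.52 for Per2, 0.13 for Per3, -0.44 for Nr1d1 and 0.27 for Nr1d2, and Dbp had 1.40 ± 0.57 (adjusted p = 0.0734). In all, 5 of 10 members were lower and 0 higher, while over all 17744 genes 21.2% were lower and 4.04% higher. The median difference was -0.67 over the 10 members and -0.23 over all genes.

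After rescaling, which moved the median of all genes to -0.0096, 4 of 10 members were lower and 1 was higher, beside 11.6% of all genes lower and 10.9% higher. Arntl (-1.06, adjusted p = 0.00676), Clock (-0.57, adjusted p = 0.00241), Cry1 (-0.71, adjusted p = 0.00411) and Cry2 (-0.67, adjusted p = 0.00492) stayed lower, and Dbp was higher by 1.63 ± 0.55 (limma, adjusted p = 0.0390). Npas2 no longer passed, at -0.88 (adjusted p = 0.0741). Sphk2, which overlaps Dbp, was also higher on this scale (0.48, limma, adjusted p = 0.0107), and how many of its reads were counted for Dbp was not tested. On the deposited CPM, Clock and Cry2 were the 2 members without overlap between HDM and naïve aged samples, beside 8.71% of all genes. After rescaling Clock still had none, but Cry2 overlapped, with 56.3 CPM in HDM replicate 2 against 48.9 CPM in naïve aged replicate 3.

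**Figure D2:**
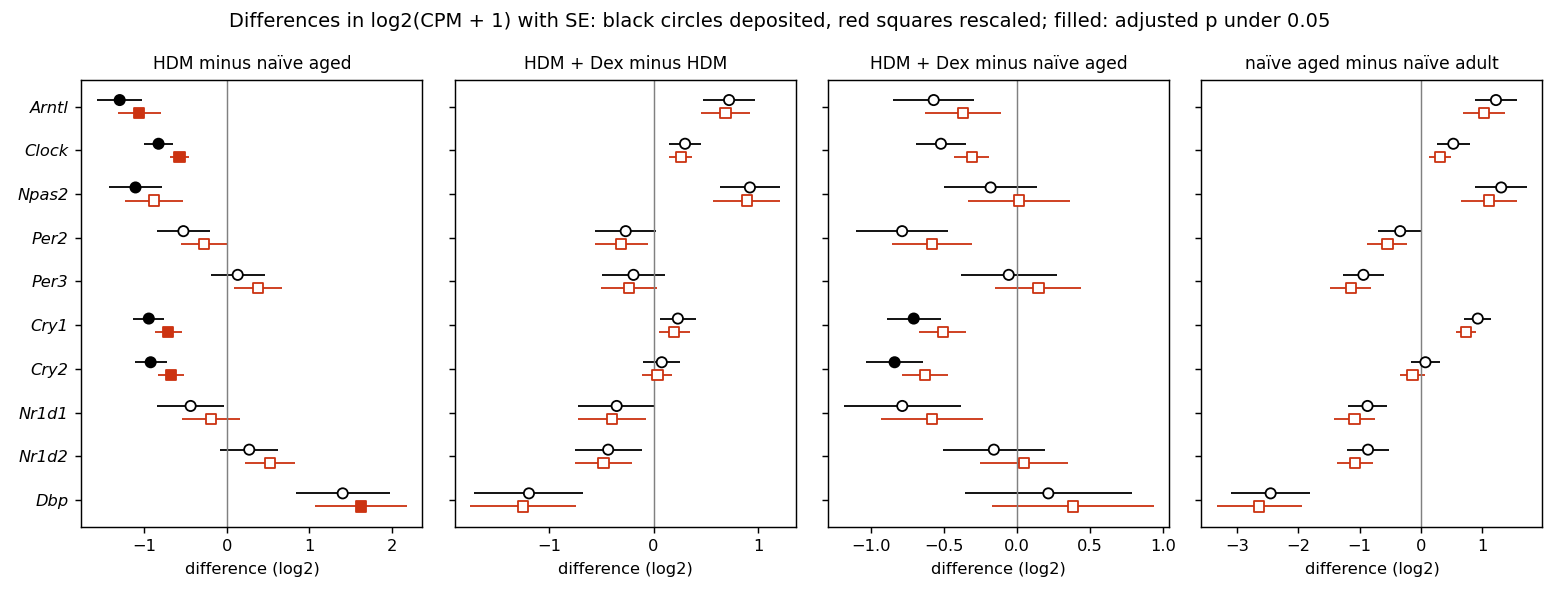
Difference in log2(CPM + 1) with its SE for the 10 clock genes in 4 comparisons, from the deposited CPM (black circles) and after rescaling (red squares), filled where the adjusted p is under 0.05. For HDM minus naïve aged, 5 black circles are filled on the left of 0, whereas none is filled for HDM + Dex minus HDM or for naïve aged minus naïve adult.

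The call of Npas2 was also lost without naïve aged replicate 2 (adjusted p = 0.0509) or replicate 3 (adjusted p = 0.0502). Without naïve aged replicate 5, which stood apart, the difference was -1.60 for Arntl (adjusted p = 0.000770), -1.48 for Npas2 and 2.06 for Dbp (limma, adjusted p = 0.00648). With the 7SL share as a covariate, Arntl (-0.94, adjusted p = 0.0767), Clock (-0.37, adjusted p = 0.0882) and Cry2 (-0.58, adjusted p = 0.0855) were not called, while Npas2 (-1.35, adjusted p = 0.0429) and Cry1 (-0.70, adjusted p = 0.0440) stayed lower and Nr1d2 (1.16, adjusted p = 0.0378) and Dbp (2.24, limma, adjusted p = 0.0487) were higher. Cell markers moved in the same comparison. All 7 heart muscle genes listed were lower after HDM, and their sum was 578 to 1083 CPM in naïve aged and 22.9 to 442 CPM in HDM samples. All 5 ciliated cell genes were lower, with sums of 267 to 410 and 58.4 to 242 CPM, and all 3 club cell genes, with sums of 4645 to 6642 and 279 to 2728 CPM. Of 4 fibroblast genes, 2 were higher and 2 lower, with sums of 608 to 787 and 767 to 1329 CPM. Of 6 immediate early genes, which respond to handling and stimulation, 4 were lower, with sums of 496 to 1104 and 235 to 445 CPM. Of 5 genes known to respond to glucocorticoids (Fkbp5, Tsc22d3, Zbtb16, Sgk1 and Per1), 3 were lower, with sums of 405 to 1165 and 257 to 458 CPM. These counts and sums are on the deposited CPM. After rescaling 7 heart muscle, 4 ciliated, 3 club, 2 immediate early and 1 of the glucocorticoid response genes were lower. Of the fibroblast genes, 2 were then higher and 1 lower. None of these genes was at 0 in either group, and the part of these cells and signals in the differences of the clock genes was not tested.

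HDM + Dex was compared with HDM to ask whether the clock genes of the challenged lung differ with the steroid. No clock gene passed the test, 0 of 10 on the deposited CPM beside 0.964% of all genes and 0 of 10 after rescaling beside 2.85%. At an unadjusted p under 0.05, which 13.5% of all genes met, 3 members differed, Npas2 (0.92 ± 0.29, adjusted p = 0.125) and Arntl (0.72 ± 0.25, adjusted p = 0.173) with higher and Dbp (-1.19 ± 0.52, limma, adjusted p = 0.303) with lower values under Dex. After rescaling 4 members did, beside 18.6% of all genes. With sample quality weights in limma, Arntl (0.90, adjusted p = 0.0411) and Npas2 (0.99, adjusted p = 0.0490) passed, beside 3.44% of all genes. The CPM of 0 members was free of overlap between these groups, beside 0.225% of all genes. The repressors had differences of -0.27 for Per2, -0.19 for Per3, 0.23 for Cry1, 0.078 for Cry2, -0.35 for Nr1d1 and -0.43 for Nr1d2. Of the same 5 glucocorticoid response genes, 0 were called higher and 0 lower in this comparison, with a median difference of -0.23. Of the 5 ciliated cell genes, 3 were higher with Dex on the deposited CPM and 4 after rescaling. The sum of the 5 was 58.4 to 242 CPM in HDM and 165 to 396 CPM in HDM + Dex samples.

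HDM + Dex was also compared with saline, with the same 5 naïve aged samples as the HDM comparison. Cry1 (-0.71 ± 0.19, adjusted p = 0.0483) and Cry2 (-0.84 ± 0.19, limma, adjusted p = 0.0316) were lower, 2 of 10 members beside 1.44% of all genes. Arntl had -0.57 (adjusted p = 0.235), Clock -0.52 (adjusted p = 0.106), Npas2 -0.18 and Dbp 0.21, none of which passed. After rescaling 0 members were called by limma, beside 0.941% of all genes, with 4 at an unadjusted p under 0.05, beside 15.8%. Cry2 then had -0.63 (adjusted p = 0.0531) and Cry1 -0.51 (adjusted p = 0.117). On the deposited CPM Cry2 was also the 1 member without overlap between the groups, beside 2.4% of all genes. After rescaling Cry2 overlapped, with 49.7 CPM in HDM + Dex replicate 3 against 48.9 CPM in naïve aged replicate 3. Either call was lost without 1 of several libraries: without naïve aged replicate 4 or 5, or HDM + Dex replicate 1, 2 or 6, neither gene was called, and Cry1 was not called without naïve aged replicate 1, 2 or 3 or HDM + Dex replicate 3 or 5 (adjusted p = 0.0644 to 0.134). The differences themselves stayed between -0.81 and -0.65 for Cry1 and between -0.93 and -0.67 for Cry2 when single samples were left out.

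Naïve aged and naïve adult mice were compared to ask how the clock genes differ between the ages without allergen or drug. The adults were all female and the aged mice of both sexes, and the hour of collection is not given. Age therefore cannot be told apart from sex or hour here. The naïve aged samples had higher values of Arntl, Npas2 and Cry1 and lower values of Dbp, Per3, Nr1d1 and Nr1d2, but no member passed the test, 0 of 10 beside 0.654% of all genes on the deposited CPM and 0 of 10 beside 1.03% after rescaling. At an unadjusted p under 0.05, 7 members differed, 3 with higher and 4 with lower values, beside 11.2% of all genes. The largest of these differences were -2.45 ± 0.64 for Dbp (adjusted p = 0.107), 1.31 ± 0.42 for Npas2 (adjusted p = 0.215) and 1.22 ± 0.35 for Arntl (limma, adjusted p = 0.149). Cry1 had 0.93 ± 0.22 (adjusted p = 0.0687), Per3 -0.94, Nr1d1 -0.87 and Nr1d2 -0.86. No member was free of overlap between the ages, beside 3.09% of all genes. Over all genes the median difference was 0.19 before and 0.0044 after rescaling.

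This comparison turned on few mice. Without naïve aged replicate 5, Arntl (1.53, adjusted p = 0.0211) and Npas2 (1.69, adjusted p = 0.0355) were higher and Dbp (-3.11, limma, adjusted p = 0.00427) lower in aged mice. Of all 17744 genes, 148 were called in that fit. Without naïve adult replicate 5, Dbp was called lower (-2.98, adjusted p = 0.0212), and without naïve adult replicate 3, Cry1 higher (1.07, adjusted p = 0.0474). Those fits called 103 and 77 of all genes. Sample quality weights, by which limma gives less weight to samples that stand apart, called 7 members, Arntl, Npas2 and Cry1 higher and Dbp, Per3, Nr1d1 and Nr1d2 lower, beside 4.42% of all genes. All adult mice were female and 3 of 5 naïve aged mice were male, and with sex as a covariate, an alternative added after seeing the data, 0 members were called. Cell markers moved here too. Of 5 neutrophil markers, 4 were higher in the naïve aged mice, with a sum of 79.8 to 266 CPM against 24.4 to 80.3 CPM in the adults. Of 5 B and plasma cell markers, 2 were higher, with sums of 90.7 to 664 and 13.7 to 69.8 CPM, and of 4 fibroblast markers, 2 were lower, with sums of 608 to 787 and 573 to 1311 CPM. The part of these cells in the differences of the clock genes was not tested.

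The balance of the limbs was then described within each sample, as the mean log2(CPM + 1) of Arntl, Clock and Npas2 minus that of the 6 repressors. The difference was -1.52 ± 0.96 (SD, n = 5) in naïve adult, -0.17 ± 1.11 (n = 5) in naïve aged, -0.84 ± 0.45 (n = 7) in HDM and -0.035 ± 0.54 (n = 7) in HDM + Dex samples. By sample it was -1.73, -2.16, -2.48, -1.21 and -0.029 in naïve adult and 0.48, 0.46, 0.51, -0.20 and -2.09 in naïve aged mice. In HDM samples it ran from -1.60 to -0.25 with a median of -0.78, and in HDM + Dex samples from -0.97 to 0.59 with a median of -0.023. By this score, which is not per kb of exon, no HDM sample had a positive limb above the negative one, compared with 3 naïve aged and 3 HDM + Dex samples. The naïve aged mean changed sign without replicate 5, to 0.31, and that of HDM + Dex ran from -0.14 to 0.12 when single samples were left out. Naïve aged replicate 5 was the third lowest of the 24 samples, next to naïve adult replicates 2 and 3.

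Each limb was also described on its own. The positive limb had a mean log2(CPM + 1) of 5.14 ± 0.60 (SD, n = 5) in naïve aged, 4.07 ± 0.29 (n = 7) in HDM and 4.72 ± 0.24 (n = 7) in HDM + Dex samples, while the negative limb had 5.31 ± 0.52, 4.91 ± 0.43 and 4.75 ± 0.50. In naïve adult samples the limbs had 4.12 ± 0.65 and 5.65 ± 0.50 (n = 5). No test was made of these scores.

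**Figure D3:**
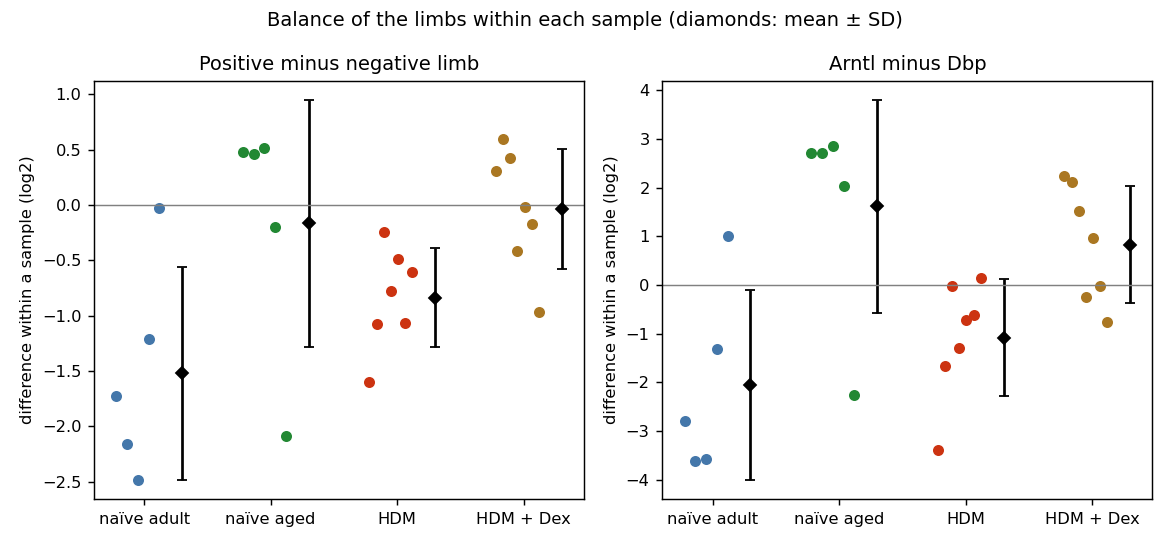
Difference within each of the 24 samples, on the log2(CPM + 1) scale, between the positive and the negative limb (left) and between Arntl and Dbp (right), 1 point a sample, with diamonds and bars for the group mean ± SD. All 7 HDM samples lie below 0 in the left plot, from -1.60 to -0.25, and naïve aged replicate 5 lies at -2.09, away from the other naïve aged mice at -0.20 to 0.51.

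The ratio of Dbp to Arntl within a sample, which needs no scaling between samples, set the mice apart more widely than either gene. The CPM of Dbp was 8.002, 13.9, 13.4, 2.58 and 0.475 times that of Arntl in naïve adult mice and 0.126, 0.124, 0.111, 0.214 and 5.17 times in naïve aged mice. It was 0.896 to 12.9 times (median 1.75) in HDM and 0.161 to 1.75 times (median 0.482) in HDM + Dex samples. Thus 6 of 7 HDM samples had a higher CPM of Dbp than of Arntl, against 1 of 5 naïve aged and 3 of 7 HDM + Dex samples. These CPM are not per kb of exon, of which Dbp has 2.99 and Arntl 7.52. A ratio of 1 is therefore not an equal level per kb. The ratio of Nr1d1 to Arntl ran from 0.6995 in an HDM + Dex to 17.2 in a naïve adult sample, and that of Per3 to Arntl from 0.702 in a naïve aged to 16.4 in an HDM sample. HDM replicate 1 had the highest ratios of its group for all 3 genes, at 12.9 for Dbp, 16.4 for Per3 and 9.56 for Nr1d1.

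To compare the limbs between mice of the same group, every gene was fitted on Arntl over the 24 samples with group as a factor. The planned fit used the deposited CPM, on which 0 of 9 other members were called, beside 0.00564% of all 17743 genes. The rescaled values were a choice made after seeing the data. On the rescaled values Dbp, Per3 and Per2 fell as Arntl rose, 3 of 9 other members, while 0.0338% of all 17743 genes were called lower. The slopes, in log2 units for each log2 unit of Arntl, were -1.93 ± 0.22 (SE) for Dbp (adjusted p = 7.52e-05), -0.92 ± 0.15 for Per3 (adjusted p = 0.00854) and -0.77 ± 0.13 for Per2 (limma, adjusted p = 0.0156). The D-box factors Hlf (-0.80, adjusted p = 0.00876) and Tef (-0.78, adjusted p = 0.00905) fell with them, so that clock genes made up 5 of the 7 genes called. The other called genes were Tspan4, a tetraspanin (-0.71, adjusted p = 0.000868), and Spon2, a secreted matrix protein (1.14, adjusted p = 0.00281). On the deposited CPM 1 gene of all was called, Spon2 (1.13, limma, adjusted p = 0.00159), that is 0.00564%, and 0 of 9 members, with 4 members at an unadjusted p under 0.05, beside 15% of all genes. There Dbp had a slope of -1.41 (adjusted p = 0.251).

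**Figure D4:**
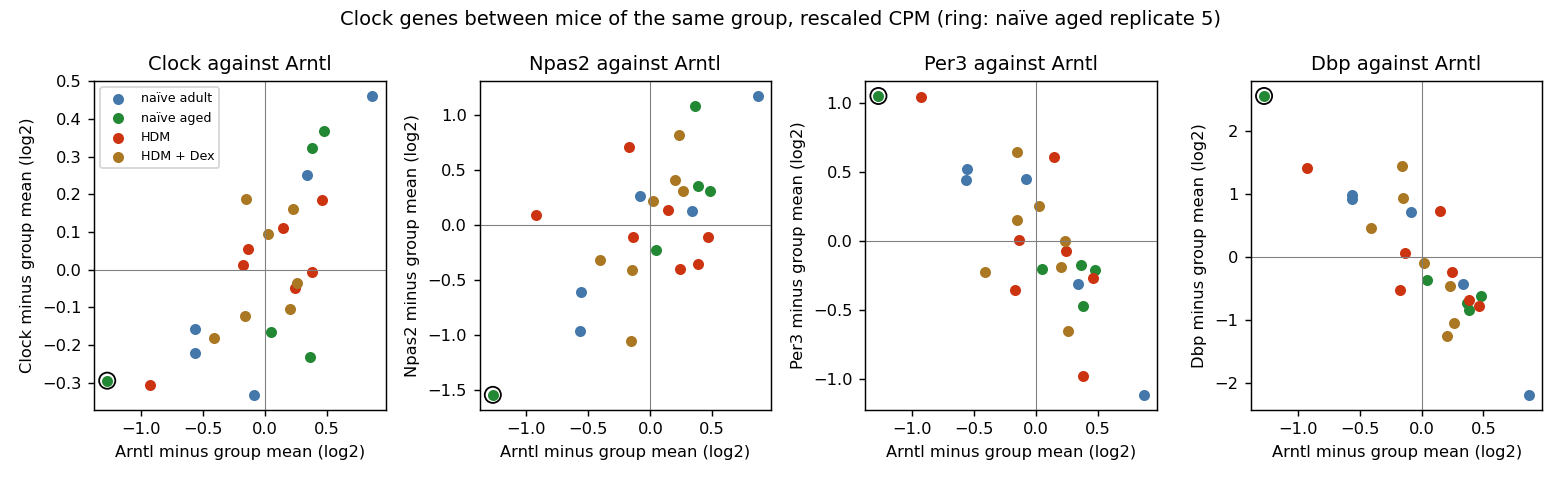
Rescaled log2(CPM + 1) of Clock, Npas2, Per3 and Dbp against that of Arntl, each minus its group mean, for 24 samples coloured by group, with a ring around naïve aged replicate 5. Points of Clock and Npas2 rise with Arntl (r = 0.70 and 0.67) and those of Per3 and Dbp fall (r = -0.80 and -0.88).

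Naïve aged replicate 5 and HDM replicate 1 had the Arntl values farthest from the median of these deviations, both on the low side. On the rescaled scale the correlation of Dbp with Arntl was r = -0.88 (permutation test within groups, p = 2e-05) and rho = -0.83 (p = 1e-05, the smallest that 100000 permutations can give), and r = -0.81 over the 22 other samples. Per3 had r = -0.80 (permutation p = 0.00024) and rho = -0.72 (p = 0.00076), and r = -0.68 without those samples. Per2 had r = -0.78 (permutation p = 0.00034) and rho = -0.66 (p = 0.00164), and -0.60 without them. Clock had r = 0.70 (permutation p = 0.00055) and rho = 0.65 (p = 0.00309), and 0.65 without them. These p are not adjusted, and 9 members were compared. Nr1d2 had r = -0.72, Npas2 0.67, Nr1d1 -0.57, Cry2 -0.54 and Cry1 0.19, and none of these 5, nor Clock, passed the limma test over all genes. The order on the rescaled scale matches the limbs except for Cry1, which lay near 0. On the deposited CPM, the scale of the planned fit, Dbp had r = -0.67 (permutation p = 0.00331) and Clock 0.71 (p = 0.00029). Per3 had -0.50 (p = 0.0261) and Per2 -0.35 (p = 0.148), with rho of -0.33 (p = 0.14) and -0.21 (p = 0.379). Without naïve aged replicate 5 and HDM replicate 1, r was -0.48 for Dbp, 0.75 for Clock, -0.25 for Per3 and -0.0076 for Per2. These p are not adjusted either.

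The calls of Per2 and Per3 were lost without single samples, though the slopes changed less. Without naïve aged replicate 5, Dbp was the 1 member called (limma, slope -1.88, adjusted p = 0.0134), and without naïve adult replicate 5, without HDM replicate 1, or over the 19 aged samples, 1 member, Dbp, was called as well. In these 4 fits the slope ran from -0.97 to -0.84 for Per3 and from -0.86 to -0.62 for Per2, the latter without naïve aged replicate 5. Without naïve aged replicate 5 and naïve adult replicates 4 and 5 together, 0 members were called, with slopes of -1.59 for Dbp (adjusted p = 0.465), -0.81 for Per3 and -0.67 for Per2.

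On the deposited CPM, the 4 genes most like Arntl by Pearson r over the 24 samples after removal of group means were Spon2 (r = 0.84), the unnamed transcript Gm37499 (0.79), Fam124b (0.78) and Prxl2b (0.76). The 4 least like it were the prostacyclin receptor Ptgir (-0.69), Dbp (-0.67), the transporter Slc6a17 (-0.64) and Tspan4 (-0.62). Dbp thus ranked second from the lowest of 17743 genes, and Clock ranked 8th from the highest (r = 0.71). The median r of all genes was 0.24 on the deposited and 0.0049 on the rescaled scale.

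Of the 20 further pathway genes, 18 passed the filter of 1 CPM on average, and Rorb and Fbxl21 did not. After HDM, 7 of the 18 were lower and 1 higher on the deposited CPM, beside 21.2% and 4.04% of all genes. Among those lower were Rora (-0.74, adjusted p = 0.00213), whose product activates RORE elements, Per1 (-0.86, adjusted p = 0.0213), a PERIOD gene, and Usp2 (-0.98, adjusted p = 0.00248), a deubiquitinase under clock control. The kinase gene Csnk1e (-0.67, adjusted p = 0.00455) and the ubiquitin ligase gene Btrc (-0.49, adjusted p = 0.0294), whose product removes PERIOD proteins, were lower as well. The E-box repressor Bhlhe40 (0.62, limma, adjusted p = 0.0328) was higher. After rescaling 3 were lower, Rora, Csnk1e and Usp2, and 1 was higher, Bhlhe40 (0.87, adjusted p = 0.00592), beside 11.6% and 10.9% of all genes, so the shares of the 18 were near or below those of all genes.

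Usp2 was at 11.9, 13.4, 9.86, 8.80 and 14.4 CPM in naïve aged and at 3.33 to 7.14 CPM (median 5.17) in HDM samples, so that the groups did not overlap. Under Dex 0 of the 18 were called against HDM. Against saline, HDM + Dex samples had lower Per1 (-1.09, adjusted p = 0.0386) and Rora (-0.66, limma, adjusted p = 0.0325), of which Rora also passed after rescaling. Between the ages 0 of the 18 were called, and Nfil3, the repressor of D-box elements, came closest (1.23, adjusted p = 0.0590), at 3.96, 8.35, 10.4, 13.4 and 12.9 CPM in naïve adult and 23.7, 28.9, 20.9, 30.01 and 13.9 CPM in naïve aged samples. On the deposited CPM the groups did not overlap for Nfil3, beside 3.09% of all genes. After rescaling they overlapped, with 12.4 CPM in naïve adult replicate 5 and 11.8 CPM in naïve aged replicate 5.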

How the data were processed

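Per the methods of the study, libraries were made from mRNA with a stranded kit and sequenced from both ends, and the authors analysed them with a Picard-STAR-limma pipeline. The submitters' processing notes name FastQC, STAR and DESeq2, and mm9, whereas gene starts in the table matched GRCm38. The authors deposited one table of CPM, with 0.0001 added to every value. The counter and the handling of strand are not given in the sources used here. Of the low values, 80.4% to 85.2% were whole multiples (within 0.05) of 1 spacing, so tests on counts were not run. Depth covers counting error only.

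Groups followed the labels. limma 3.58.1 (R 4.3.3) was run on log2(CPM + 1) of the 17744 genes averaging 1 CPM or more over the 24 samples, with eBayes and a trend, Benjamini-Hochberg adjustment and a threshold of 0.05. One fit held the 19 aged samples, another the 10 naïve samples. Fold changes on this scale understate those of low genes. Rescaling used median-of-ratios size factors of the CPM. The fits were tested on simulated data. Sex was read from Xist and Ddx3y. Alternatives were scaling, pseudocount, filter, samples in the fit, weights, covariates, a replicate block and leaving out each sample.

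All 10 members were named, with pathway genes past the threshold (some are counted but not reported here by name) and the 4 genes most and least like Arntl. Members and lists were chosen with earlier results of these data known. Nfil3, Hlf, Tef, Tspan4 and Usp2 were described further after their values were seen. Gene coordinates are those of GENCODE vM21, promoters those of RefSeq. Python 3.11.15, numpy 2.4.6, pandas 2.3.3 and matplotlib 3.10.9 were used.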

Additional observations from a re-analysis of the deposited data

Results flagged for a closer look

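Of 44 sets of 5 or 7 values of 1 gene or limb difference within 1 group, 6 had a highest or lowest sample set apart from the rest by Dixon's criterion. Chance meets it in about 1 of 20 independent sets. These sets share samples, and the limb difference is built from the same genes, so the count of 6 is a description. Naïve aged replicate 5 gave 5 of the 6. Arntl was 9.65 CPM there, against 25.0 to 33.9 CPM in the other naïve aged mice. Dbp was 49.9 CPM against 3.56 to 5.34, Per3 was 68.3 CPM against 23.2 to 27.0, and Nr1d1 was 100.5 CPM against 30.9 to 40.5. The difference between the positive and the negative limb in the same mouse was -2.09 on the log2 scale, against -0.20 to 0.51. The sixth was Arntl in HDM + Dex replicate 6, at 10.3 CPM against 16.1 to 17.6 CPM in the other 6 mice of the group. The hour of collection of these lungs is not given in the sources used here, and its part in these values was not tested.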

How the results depend on the processing

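Members called in HDM against saline numbered 4 to 6 under all alternatives (4 to 6 also when single samples were left out). The genes called were not the same throughout, as given above for the 7SL share. Over all genes 25.3% were called in the main fit and 44.4% with quality weights. For HDM + Dex against HDM the number was 0, except 2 with sample quality weights. For HDM + Dex against saline it was 2, but 0 with median-of-ratios scaling, quantile normalization or the 7SL share as covariate. It was 1 with a pseudocount of 0.1, without the filter, with all 24 samples in the fit or without a trend. With quality weights it was 6, beside 30.8% of all genes called, and it was 0 to 3 when single samples were left out. With sex as a covariate Clock was also called (limma, adjusted p = 0.0235). Between the ages it was 0, but 7 with quality weights and 0 to 3 when single samples were left out. For the fit on Arntl it was 0 on the deposited values, but 3 with median-of-ratios scaling, 3 with quantile normalization and 4 with the 7SL share. After rescaling, a choice made after seeing the data, it was 3, but 1 over the 19 aged samples, 0 without 3 naïve samples together and 1 to 4 when single samples were left out. Nr1d2 was also called on that scale with sex (limma, adjusted p = 0.0162) or the 7SL share (adjusted p = 0.00618) as covariate. Differences that changed sign, none of them past the threshold, were those of Per2 (0.10) and Nr1d1 (0.58) with the 7SL share in HDM against saline. In HDM + Dex against saline they were those of Npas2 (0.012), Per3 (0.15) and Nr1d2 (0.046) with median-of-ratios scaling, Per3 (0.16) and Nr1d2 (0.067) with quantile normalization, and Per3 (0.39), Nr1d1 (0.010) and Nr1d2 (0.53) with the 7SL share. For Cry2 between the ages they were -0.14 with median-of-ratios scaling, -0.11 with quantile normalization, -0.27 with quality weights and -0.10 with the 7SL share, and the rescaled slope of Cry2 was 0.0026 without 3 naïve samples. When single samples were left out, Per3 ran from -0.025 to 0.41 in HDM against saline, Cry2 from -0.020 to 0.15 in HDM + Dex against HDM and from -0.094 to 0.17 between the ages, and its slope on Arntl from -0.19 to 0.076. In HDM + Dex against saline, Npas2 ran from -0.56 to 0.065, Per3 from -0.22 to 0.22, Nr1d2 from -0.41 to 0.14 and Dbp from -0.078 to 0.87. The limb difference ran from -0.34 to 0.31 in naïve aged and from -0.14 to 0.12 in HDM + Dex samples. Without Npas2 it was -0.11 for HDM, 0.55 for HDM + Dex and 0.54 for naïve aged samples, and it was -1.29 in HDM samples with Nr1d1, Nr1d2 and Per3 alone as repressors. Of 32 pairs of samples with the same replicate number, 4 correlated above 0.1 over all genes tested (r from -0.24 to 0.41) and 4 matched their own number best. Whether the numbers stand for a pairing, such as a shared session of collection, was not tested. With the replicate block the members called were 5, 0, 2 and 0 in the 4 comparisons, in the order above, 1 in the fit on Arntl and 3 after rescaling. The causes of these changes were not tested. With 5 to 7 samples a group and a wide spread within groups, differences in Dbp, Nr1d1 or Per2 are measured with standard errors of 0.29 to 0.64.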
